A study of Bos taurus with 13 samples.

Results

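The miR-34 and miR-449 miRNAs were followed in extracellular vesicles (EVs) of bovine follicular fluid. The members were taken by name: bta-miR-34a, bta-miR-34c, bta-miR-34b, bta-miR-449c, bta-miR-449b and bta-miR-449a. Of these 6 names, 4 were listed among the 311 miRNAs of the series. bta-miR-449a, bta-miR-34a and bta-miR-34c were listed for all 13 libraries, bta-miR-34b was listed only for the transient cows at weeks 5 and 6, and bta-miR-449b and bta-miR-449c were not listed. Where a group's tables left out a miRNA, its level there is unknown and was not set to 0.

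EVs are small membrane particles released by cells, and those of follicular fluid reach both the oocyte and the follicle cells around it. The miR-34 and miR-449 miRNAs share a seed, the stretch at the 5′ end that pairs with target messenger RNAs. miR-34a is made in many tissues and is a direct transcriptional target of p53. miR-34b, miR-34c and the miR-449 miRNAs are best known from cells with motile cilia, such as those lining the oviduct and airway, and from the germ line. In the bovine RefSeq annotation (ARS-UCD2.0, used only for names and gene order) MIR34B and MIR34C were neighbouring miRNA genes within the bounds of BTG4 and HOATZ. MIR449A, MIR449B and MIR449C were neighbours inside CDC20B, which is a known gene of multiciliated cells, and MIR34A lay apart from both inside GPR157. The family's link to ciliated cells is background knowledge. No miRNAs outside the family were held as markers of such cells, so that link could not be checked with these data.

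Small RNA was sequenced from pooled follicular fluid of postpartum Holstein-Friesian cows and of heifers. Transient cows (TCs) had a negative energy balance at weeks 5 and 6 after calving and a positive one at weeks 9 and 10, and 3 pools were made at each time, from 11 and 7 cows. Always negative cows (ANCs) and always positive cows (APCs) were sampled at weeks 5 and 6, with 2 pools each from 2 cows. The heifers, which were in positive energy balance and not lactating, gave 3 pools from 8 animals. Ages were not given in the sources used here. How the animals were divided over the pools was not stated, nor whether the same TCs were used at both times, so p-values measure the spread between pools. The times of the TC pools were taken as the labels give them. Whether the labels of both times could be exchanged is in doubt and could not be settled from the files. If they were, the TC values at the earlier and later weeks given here would change places.

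The libraries held 145030 to 421435 miRNA reads, with a median of 327359, and the ANC pools were among the 3 with the fewest reads. Levels are given as CPM, reads divided by the scaled size of their library, on one scale set over the 262 miRNAs listed for all groups. A count of 0 allows up to 3 reads, which was 7.30 to 20.1 CPM depending on the library. Poisson intervals of levels and the limits for counts of 0 cover counting error only. Intervals of log2 fold changes come from limma and rest on the spread between pools. Tests used limma on log2(CPM + 5), a scale that understates the change of low miRNAs. A miRNA was called differentially expressed where its log2 fold change was 1 or more in either direction, its unadjusted p was under 0.05 and its adjusted p did not exceed 0.25. Between 207 and 233 miRNAs passed the filter on low counts in each comparison.

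The levels of bta-miR-34c and bta-miR-449a differed widely between pools of the same group, and a single pool of TCs at weeks 5 and 6 held most of their reads. For bta-miR-34c, the 3 TC pools at weeks 5 and 6 held 78.8, 7828 and 72.1 CPM, from 23, 2752 and 21 reads. The level in replicate 2 had a 95% Poisson interval of 7539 to 8126 CPM, far from the 50 to 118 CPM of replicate 1 and the 44.6 to 110 CPM of replicate 3. In replicate 2 bta-miR-34c ranked 30 of the 285 listed miRNAs, against 170 and 173 in the other TC pools at that time.

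The TC pools at weeks 9 and 10 held 134, 283 and 73.5 CPM of bta-miR-34c. The ANC pools held 71.3 and 20.1 CPM, the second from only 3 reads. The APC pools held 44.6 and 852 CPM, and the heifer pools held 44.5, 42.4 and 526 CPM. The APC pool of replicate 2 and the heifer pool of replicate 3 were thus also well above the other pools of their groups. As mean ± SD, bta-miR-34c was at 2660 ± 4476 CPM (n = 3) in TCs at weeks 5 and 6, 164 ± 108 CPM (n = 3) in TCs at weeks 9 and 10, 45.7 ± 36.2 CPM (n = 2) in ANCs, 448 ± 571 CPM (n = 2) in APCs and 204 ± 278 CPM (n = 3) in heifers. The SD was larger than the mean in each of the 3 groups with such a pool.

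bta-miR-449a had the same high pools at lower levels. The TC pools at weeks 5 and 6 held 85.7, 1607 and 48.1 CPM, from 25, 565 and 14 reads. At weeks 9 and 10 they held 65.7, 89.7 and 7.88 CPM. The ANC pools held 0 and 26.8 CPM, which was 4 reads in all. The first of these had no read, which allows up to 11.9 CPM. The APC pools held 20.6 and 324 CPM, and the heifer pools held 0, 0 and 67.4 CPM, where the libraries without a read allow up to 14.8 and 7.49 CPM. The mean was 580 ± 890 CPM (n = 3) in TCs at weeks 5 and 6 and 54.4 ± 42.0 CPM (n = 3) in TCs at weeks 9 and 10. It was 13.4 ± 18.9 CPM (n = 2) in ANCs, 172 ± 215 CPM (n = 2) in APCs and 22.5 ± 38.9 CPM (n = 3) in heifers.

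bta-miR-34b, listed only for TCs at weeks 5 and 6, held 10.3, 481 and 3.43 CPM, from 3, 169 and 1 reads. Its high pool was again replicate 2. Since no other group listed it, bta-miR-34b entered no comparison.

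bta-miR-34a behaved differently from its relatives. It held 956, 913 and 786 CPM in TCs at weeks 5 and 6 and 759, 832 and 864 CPM at weeks 9 and 10. The ANC pools held 646 and 576 CPM, the APC pools 498 and 762 CPM, and the heifer pools 776, 989 and 914 CPM. Both ANC pools were below all TC and heifer pools. The highest of the 13 pools was 1.99 times the lowest for bta-miR-34a, against 390 times for bta-miR-34c and, over its 3 pools, 140 times for bta-miR-34b.

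**Figure D1:**
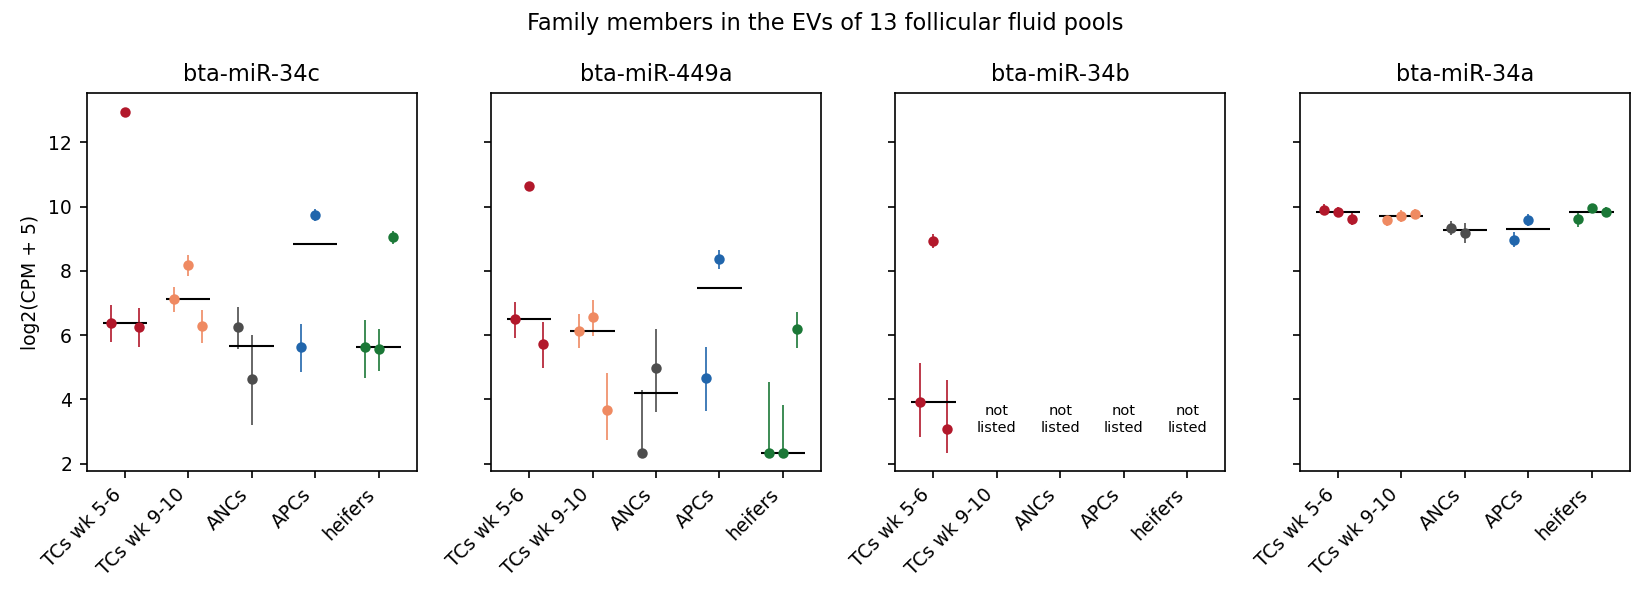
Levels of the 4 listed members in each pool, as log2(CPM + 5), by group (TCs at weeks 5-6 and 9-10, ANCs, APCs, heifers). Points are pools from replicate 1 at left, vertical lines are 95% Poisson intervals, and horizontal bars are group medians. bta-miR-34c, bta-miR-34b and bta-miR-449a share their high TC pool, whereas bta-miR-34a is nearly level over the 13 pools.

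Ordered by group medians, bta-miR-34c was highest in APCs (448 CPM), followed by TCs at weeks 9 and 10 (134 CPM), TCs at weeks 5 and 6 (78.8 CPM), ANCs (45.7 CPM) and heifers (44.5 CPM). The pools of neighbours in this order overlapped except for those of TCs at weeks 5 and 6 and ANCs, which lay next to each other at 72.1 and 71.3 CPM. For bta-miR-449a the order was APCs (172 CPM), TCs at weeks 5 and 6 (85.7 CPM), TCs at weeks 9 and 10 (65.7 CPM), ANCs (13.4 CPM) and heifers (0 CPM), and for bta-miR-34a it ran from heifers (914 CPM) through both TC times (913 and 832 CPM) to APCs (630 CPM) and ANCs (611 CPM). In both orders the pools of every pair of neighbours overlapped.

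The spread between pools of one group, taken over the 5 groups, was an SD of 2.46 on the log2 scale for bta-miR-34c. This was the largest of the 247 miRNAs tested across the groups, whose median SD was 0.57. bta-miR-449a was the third at 2.21, behind bta-miR-132 at 2.39, a miRNA induced in granulosa cells by gonadotropin. bta-miR-34a ranked 240 of 247 with an SD of 0.20.

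**Figure D2:**
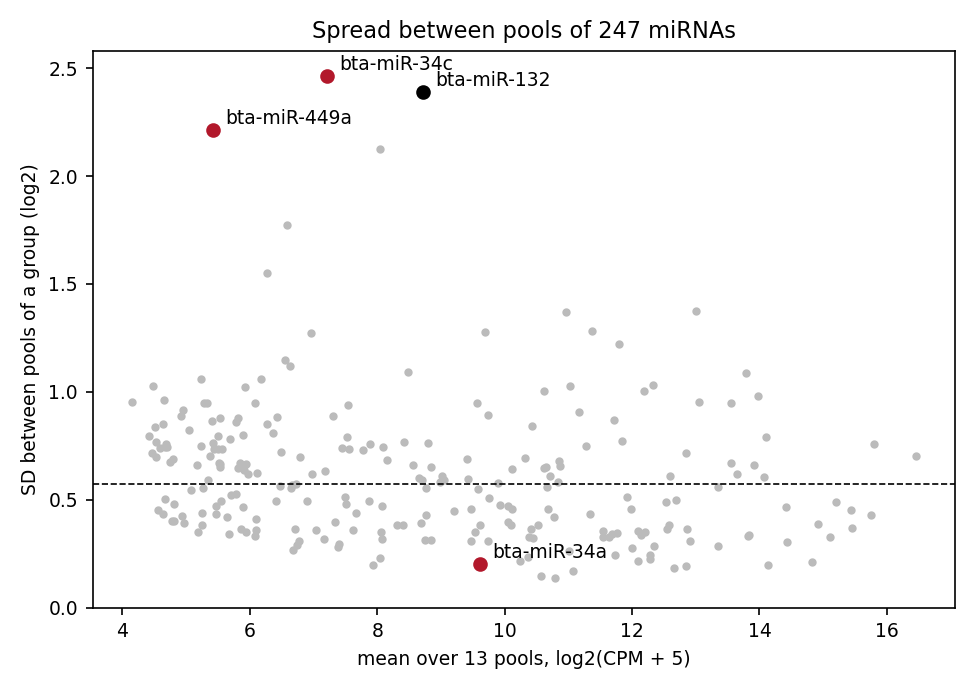
SD between pools of a group (log2 scale, pooled over the 5 groups) against the mean level over 13 pools, for the 247 miRNAs tested. The dashed line is the median SD of 0.57; bta-miR-34c and bta-miR-449a lie at the top together with bta-miR-132, and bta-miR-34a near the bottom.

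The share of a library's reads taken by bta-miR-34c and bta-miR-449a together shows the same pool. It was 0.932% in replicate 2 of the TCs at weeks 5 and 6 and 0.00447 to 0.0835% in the other 12 libraries. bta-miR-34a took 0.0443 to 0.104% of the reads of all libraries. In the high TC pool there were 4.87 reads of bta-miR-34c for each read of bta-miR-449a, against 0.92 and 1.5 in the other TC pools at that time, and the ratio ran from 0.75 to 9.33 over the 10 libraries with a bta-miR-449a read. Several of these ratios rest on fewer than 10 reads.

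bta-miR-34c and bta-miR-449a rose and fell together over the pools. Their levels correlated with Pearson's r = 0.835 (permutation p = 0.00042, Benjamini-Hochberg 0.00168 over 4 relations) and Spearman's rho = 0.845 (permutation p = 0.00055, Benjamini-Hochberg 0.0022) over 13 pools, two-sided with 100000 resamples. The r of the deviations from group means was 0.848. Without the pools farthest from the median of bta-miR-34c, which were replicate 2 of the TCs at weeks 5 and 6 and replicate 2 of the APCs, r fell to 0.548 over 11 pools (permutation p = 0.081), so the relation rests in large part on those pools. bta-miR-34a followed neither, with r = 0.404 to bta-miR-34c (permutation p = 0.169, Benjamini-Hochberg 0.337) and r = 0.219 to bta-miR-449a (permutation p = 0.468, Benjamini-Hochberg 0.624). Spearman's rho for these pairs was 0.308 (permutation p = 0.305, Benjamini-Hochberg 0.610) and 0.210 (permutation p = 0.49, Benjamini-Hochberg 0.653). Without the same pools r to bta-miR-34c was 0.454. For bta-miR-449a the farthest pools were replicate 2 of the TCs at weeks 5 and 6 and replicate 1 of the ANCs, and without them r was -0.029.

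The RNA of the pools was measured on different days in the study's records. The 5 pools of the first day were replicate 1 of each group. They held 44.5 to 134 CPM of bta-miR-34c and 0 to 85.7 CPM of bta-miR-449a. The 7 of the second day, from replicates 2 and 3, held 20.1 to 7828 CPM and 0 to 1607 CPM. Replicate number and day thus went together. The APC pool of replicate 2 had no day. Within the second day alone r between bta-miR-34c and bta-miR-449a was 0.885 (exact permutation p = 0.0127, n = 7) and rho was 0.786 (exact permutation p = 0.048, n = 7). These 7 pools include the high TC pool, and no value without it was computed within the day. No correlation was computed for the 5 pools of the first day, fewer than the 6 required here for any correlation across pools. The part of the measuring day in these levels was not tested beyond the fits with day as a covariate given with the comparisons.

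**Figure D3:**
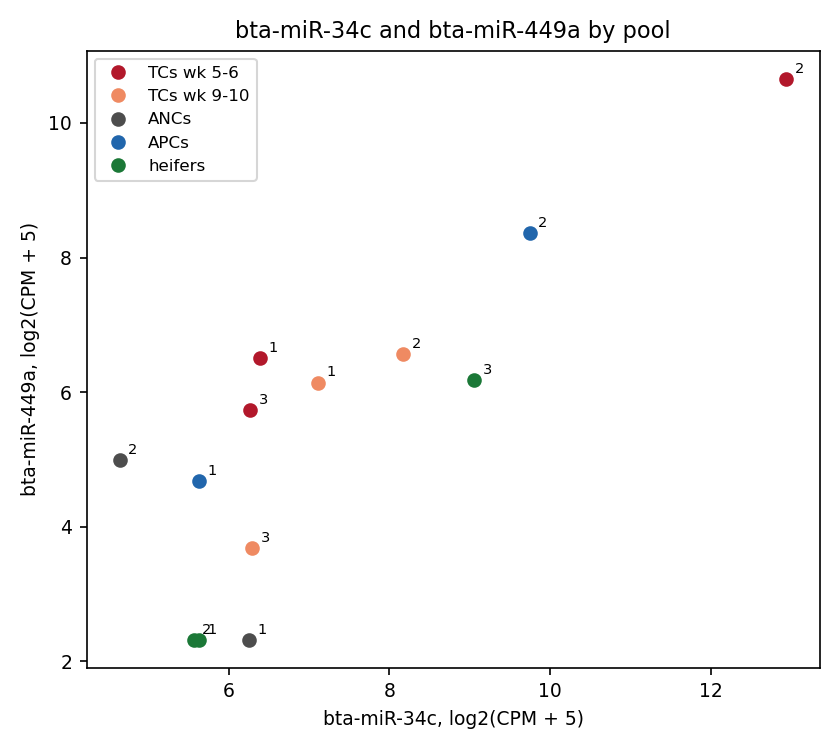
bta-miR-449a against bta-miR-34c, both as log2(CPM + 5), in the 13 pools, coloured by group and numbered by replicate. The TC pool at 7828 and 1607 CPM and the APC pool at 852 and 324 CPM lie at the upper right; pools at the bottom had no bta-miR-449a read.

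The miRNAs most like each member over the 13 pools were then listed, out of 244 compared, as a description without a test. bta-miR-34c was most like bta-miR-504 (r = 0.722), bta-miR-200a (r = 0.683) and bta-miR-95 (r = 0.667), and these r were 0.594, 0.500 and 0.472 without the high TC pool. bta-miR-449a was most like bta-miR-378c (r = 0.644), bta-miR-145 (r = 0.629) and bta-miR-141 (r = 0.615), and these r were 0.579, 0.682 and 0.450 without that pool. bta-miR-34a was most like the far more abundant bta-miR-30d (r = 0.777) and bta-miR-192 (r = 0.761), and bta-miR-1388-3p (r = 0.728). Pools share their depth and scaling, and over all 13 pools none of the 6 values for bta-miR-34c and bta-miR-449a was as high as the r between the pair itself. Without the high TC pool the r of the pair was 0.697, close to the 0.682 of bta-miR-449a and bta-miR-145.

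Replicate 2 of the TCs at weeks 5 and 6, a pool singled out after its values were seen, stood apart by only a few miRNAs. In it 5 of 247 miRNAs were at least 4-fold above the next TC pool of that time on the CPM + 5 scale: bta-miR-34c at 93.5-fold, bta-miR-184 at 20.4-fold, bta-miR-449a at 17.8-fold, bta-miR-9-5p at 6.65-fold and bta-miR-30f at 5.51-fold. A further 3 were at least 4-fold below. Over all miRNAs the pool correlated with the other TC pools of that time at r = 0.911 and 0.952. The first was the lowest r within any group, as pools of the other groups were at 0.936 or above. In the APC pool of replicate 2, bta-miR-34c and bta-miR-449a made up 2 of the 14 miRNAs at least 4-fold above the other pool, and in the heifer pool of replicate 3 they were 2 of 7.

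Epithelial miRNAs were measured beside these pools. The miR-200 family keeps cells epithelial, and miR-205, miR-184 and miR-182 are abundant in epithelia. The summed level of the 9 epithelial miRNAs listed for all groups was 15000, 33420 and 6462 CPM in the TC pools at weeks 5 and 6, so that the high pool of bta-miR-34c was also the highest of the series here. It was 6296 and 31320 CPM in the APC pools, again higher in the pool with more bta-miR-34c. In heifers it was 17330, 27150 and 17900 CPM, and there it did not follow bta-miR-34c, which was at 42.4 CPM in the pool of 27150 CPM. In TCs at weeks 9 and 10 it was 6111, 19830 and 8343 CPM. There it was highest in the pool with most bta-miR-34c, but lowest in the pool at 134 CPM and not in that at 73.5 CPM. In ANCs it was 5542 and 8858 CPM, lower in the pool with more bta-miR-34c. Of the 9, 0 were at 0 in all pools of a group. The part of epithelial RNA in the levels of bta-miR-34c and bta-miR-449a was not tested.

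bta-miR-132 did not share the high pools. It held 274, 205 and 1191 CPM in the TC pools at weeks 5 and 6 and 2648, 154 and 68.3 CPM at weeks 9 and 10. The ANC pools held 95.1 and 73.7 CPM, the APC pools 4872 and 93.5 CPM, and the heifer pools 959, 237 and 6420 CPM. Only the heifer pool of replicate 3 was high for both miRNAs, and r between bta-miR-132 and bta-miR-34c was -0.032 (permutation p = 0.924, Benjamini-Hochberg 0.924) with rho = 0.060 (permutation p = 0.849, Benjamini-Hochberg 0.849) over 13 pools. Without the 2 pools farthest in bta-miR-34c, r was 0.378.

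The 10 pairwise comparisons ask how EV cargo differs with energy balance and with lactation. No member was called in any of them: 0 of the 28 tests of bta-miR-34a, bta-miR-34c and bta-miR-449a passed in limma, and 3 had an unadjusted p under 0.05. Over all miRNAs limma called 108 of 2248 tests, or 4.80%. The 3 fell in comparisons where 18 of 225, 13 of 233 and 40 of 230 miRNAs had an unadjusted limma p under 0.05. On the same reads edgeR's quasi-likelihood test called 0 and DESeq2 called 1 of the member tests. In 3 of the 10 comparisons bta-miR-449a had the largest absolute difference of all miRNAs tested, with a standard error to match. Each of the 3 included the TC group with the high pool. Against ANCs bta-miR-449a did not pass the filter on low counts once that pool was left out. These ranks thus rest in part on that pool, and they were not tested. bta-miR-132 and the listed members other than bta-miR-34a were picked out by the study on these pools, so their values here, whichever way they point, are not independent evidence.

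In ANCs compared to TCs at weeks 5 and 6, the 3 members listed for both groups were lower in both ANC pools than in every TC pool, but no difference passed. Over all comparisons, 6 of the 30 member differences had pools apart in this way. The share of all miRNAs whose pools lay apart was not counted, here or below, so such separation is only described. With 2 or 3 pools in a group it is frequent without any difference, so the 6 are no result about the members. For bta-miR-34c the nearest pools were 71.3 CPM in ANCs and 72.1 CPM in TCs. bta-miR-449a had the largest absolute log2 fold change of the 225 miRNAs tested, at -3.94 ± 1.54 (SE, 95% interval -7.60 to -0.28, limma adjusted p = 0.55). bta-miR-34c was second at -3.10 ± 1.97 (interval -7.76 to 1.56, limma adjusted p = 0.582), and bta-miR-34a was at -0.55 ± 0.34 (interval -1.35 to 0.26, limma adjusted p = 0.582). The exact two-sided permutation p was 0.2, 0.4 and 0.2, where 2 pools against 3 cannot go below 0.1. edgeR and DESeq2, which fit the mean of the reads, gave -5.88 and -5.89 for bta-miR-34c (edgeR adjusted p = 0.561, none from DESeq2). In this comparison limma called 0% of all 225 miRNAs, with 18 at an unadjusted p under 0.05, and both edgeR and DESeq2 called 0.

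That comparison leaned on the high TC pool for bta-miR-34c. Without it, the log2 fold change was -0.79 for bta-miR-34c (limma adjusted p = 0.673) and -0.41 for bta-miR-34a (limma adjusted p = 0.714). bta-miR-449a was at -2.38 and no longer passed the filter on low counts, so it had no test. With the measuring day as a covariate the values with all pools were -2.90 for bta-miR-34c, -3.59 for bta-miR-449a and -0.57 for bta-miR-34a, and none was called.

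Between TCs at weeks 9 and 10 and TCs at weeks 5 and 6, pools overlapped for all members. bta-miR-449a again had the largest absolute difference, of 224 miRNAs, at -2.16 ± 1.26 (SE, interval -5.03 to 0.71, limma adjusted p = 0.573), and bta-miR-34c was at -1.32 ± 1.58 (interval -4.91 to 2.26, limma adjusted p = 0.772). bta-miR-34a was at -0.10 ± 0.30 (interval -0.78 to 0.59, limma adjusted p = 0.914), and its sign turned under other scalings, to 0.14 with total counts. Without the high TC pool bta-miR-34c turned to 0.90 (limma adjusted p = 0.476) and bta-miR-449a was at -0.62 (limma adjusted p = 0.711). The sign of every value in this comparison rests on the labels of the TC times, which are in doubt. edgeR gave -4.08 for bta-miR-34c and -3.47 for bta-miR-449a (edgeR adjusted p = 0.481 for each), and DESeq2 gave -4.05 and -3.45 with no adjusted p. Here limma called 0% of the miRNAs, with 12 at an unadjusted p under 0.05, while edgeR called 0 and DESeq2 called 9.

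In ANCs compared to TCs at weeks 9 and 10, which the high pool does not touch, bta-miR-34c was lower in both ANC pools than in all TC pools. The log2 fold change was -1.80 ± 0.70 (SE, interval -3.40 to -0.20, limma p = 0.0322, adjusted p = 0.609, exact permutation p = 0.2). bta-miR-34a did not overlap either, at -0.47 ± 0.36 (interval -1.30 to 0.37, limma adjusted p = 0.643, exact permutation p = 0.1, the smallest possible). bta-miR-449a overlapped, at -1.88 ± 1.10 (interval -4.41 to 0.66, limma adjusted p = 0.609). Without ANC replicate 1, which had no bta-miR-449a read, it was at -0.42, and without ANC replicate 2 at -3.29 (limma adjusted p = 0.951 and 0.286). For bta-miR-34c these values were -2.52 and -1.02 (limma adjusted p = 0.29 and 0.913). Both leave 1 ANC pool, assumed to vary as the TC pools did. limma called 0% of 233 miRNAs with 13 at an unadjusted p under 0.05, edgeR called 0 and DESeq2 called 4. With the replicate block limma called 27. Among them were bta-miR-34c at -2.24 (limma adjusted p = 0.0128) and bta-miR-449a at -2.77 (limma adjusted p = 0.0101). TC replicate 3 has no ANC pool of its number, so the block gave it no weight. Without that pool and without a block the values were -2.20 and -2.71 (limma adjusted p = 0.727 for each), and neither was called. With day as a covariate bta-miR-34c was at -1.90 (limma adjusted p = 0.303).

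ANCs compared to APCs, both sampled at weeks 5 and 6, gave -2.19 ± 1.43 for bta-miR-34c (SE, interval -5.87 to 1.48, limma adjusted p = 0.588) with overlapping pools. bta-miR-449a was at -2.78 but did not pass the filter on low counts. bta-miR-34a was at 0.02 ± 0.42 (interval -1.04 to 1.09, limma adjusted p = 0.989), a value so near 0 that its sign turned with the scaling. limma called 0% of 207 miRNAs with 17 at an unadjusted p under 0.05, edgeR called 0 and DESeq2 called 6, among them bta-miR-34c at -3.29 (DESeq2 adjusted p = 0.243). Without the low APC pool, replicate 1, both bta-miR-34c at -4.20 (limma adjusted p = 1.39e-05) and bta-miR-449a at -4.59 (limma adjusted p = 0.0142) were called. A single APC pool then stood for the group, assumed to vary as the ANC pools did. Without the other APC pool, replicate 2, bta-miR-34c was at -0.19 (limma adjusted p = 0.971) and bta-miR-449a at -1.03 with no test, so both differences rest on that pool. Without ANC replicate 2, bta-miR-449a was called at -4.05 (limma adjusted p = 0.0265), with a single ANC pool of 0 reads in place of the group.

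Compared to TCs, APCs showed differences that their own spread covered. Against TCs at weeks 5 and 6 the log2 fold changes were -0.79 ± 2.22 for bta-miR-34c, -1.05 ± 1.67 for bta-miR-449a and -0.46 ± 0.39 for bta-miR-34a (SE, each limma adjusted p = 0.993). bta-miR-34c and bta-miR-449a turned to 1.40 and 0.45 without the high TC pool, and to 1.26 and 0.78 without APC replicate 1. limma called 0% of 225 miRNAs there, with 6 at an unadjusted p under 0.05, edgeR called 0 and DESeq2 called 1. Against TCs at weeks 9 and 10 they were 0.58 ± 1.18, 1.13 ± 1.26 and -0.31 ± 0.36 (SE, limma adjusted p = 0.880, 0.818 and 0.818), where 10% of 229 miRNAs were called and no member was. The first of these values turned to -1.44 and the second to -0.67 without APC replicate 2. Without APC replicate 1 both were called, at 2.59 and 2.94 (limma adjusted p = 0.0449 and 0.0836), with only the high APC pool left and the spread taken from the TC pools.

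The heifers give the background level of animals that were not lactating. Relative to heifers, TCs at weeks 5 and 6 showed for bta-miR-449a the largest absolute difference of 230 miRNAs at 4.02 ± 1.54 (SE, interval 0.39 to 7.66, limma adjusted p = 0.252), just past the limit of 0.25. It rests on 2 heifer pools without a read, and the heifer pool of replicate 3 at 67.4 CPM overlapped the TC pool at 48.1 CPM. Without heifer replicate 3 it was called at 5.28 (limma adjusted p = 0.213). Without the high TC pool it was 2.59 (limma adjusted p = 0.242) and was not called, since its unadjusted p was above 0.05. bta-miR-34c was at 1.78 ± 1.90 (interval -2.71 to 6.26, limma adjusted p = 0.643) and turned to -0.30 without the high TC pool, and bta-miR-34a was at -0.02 ± 0.24 (interval -0.57 to 0.54, limma adjusted p = 0.98), with its sign depending on the scaling. limma called 6.96% of all miRNAs in this comparison, which was 16, or 29 with the replicate block, 0 with the measuring day as a covariate and 46 without the high TC pool, and 0 members in each case.

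Relative to heifers, the values of TCs at weeks 9 and 10 were 1.96 ± 1.18 for bta-miR-449a (interval -0.76 to 4.67, limma adjusted p = 0.59), 0.49 ± 0.93 for bta-miR-34c and -0.07 ± 0.27 for bta-miR-34a. limma called 0% of 227 miRNAs with 24 at an unadjusted p under 0.05, edgeR called 0 and DESeq2 called 14. bta-miR-34c turned to -0.30 in edgeR and -0.35 in DESeq2.

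APCs compared to heifers had bta-miR-449a at 2.95 ± 1.46 (SE, interval -0.53 to 6.44, limma adjusted p = 0.387), bta-miR-34c at 1.08 ± 1.46 (limma adjusted p = 0.73) and bta-miR-34a at -0.37 ± 0.36 (limma adjusted p = 0.614). Without APC replicate 2 bta-miR-34c turned to -0.94. Without APC replicate 1 bta-miR-449a was called at 4.80 (limma adjusted p = 0.186), with only the high APC pool left and the spread taken from the heifer pools. Without APC replicate 2 it was at 1.21 (limma adjusted p = 0.758). Here 12.4% of 233 miRNAs were called.

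In ANCs compared to heifers, where 18.6% of 215 miRNAs were called, no member was. bta-miR-34a was lower in both ANC pools than in all heifer pools at -0.45 ± 0.34 (SE, interval -1.23 to 0.32, limma adjusted p = 0.383, exact permutation p = 0.2). bta-miR-34c was at -1.23 ± 1.07 (interval -3.69 to 1.22, limma adjusted p = 0.448) with overlapping pools. Without the high heifer pool, replicate 3, it was at -0.05 and below the filter on low counts, so the difference rests on that pool. bta-miR-449a, with reads in 1 of 2 ANC pools and in 1 of 3 heifer pools, was at 0.11 and did not pass the filter on low counts. Its sign turned with the scaling and the pseudocount. In the same comparison both erythroid miRNAs tested, 5 of 5 leukocyte miRNAs, 6 of 9 epithelial miRNAs, 1 of 3 muscle miRNAs and bta-miR-122 of liver were called down. Their part in the members' values was not tested.

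**Figure D4:**
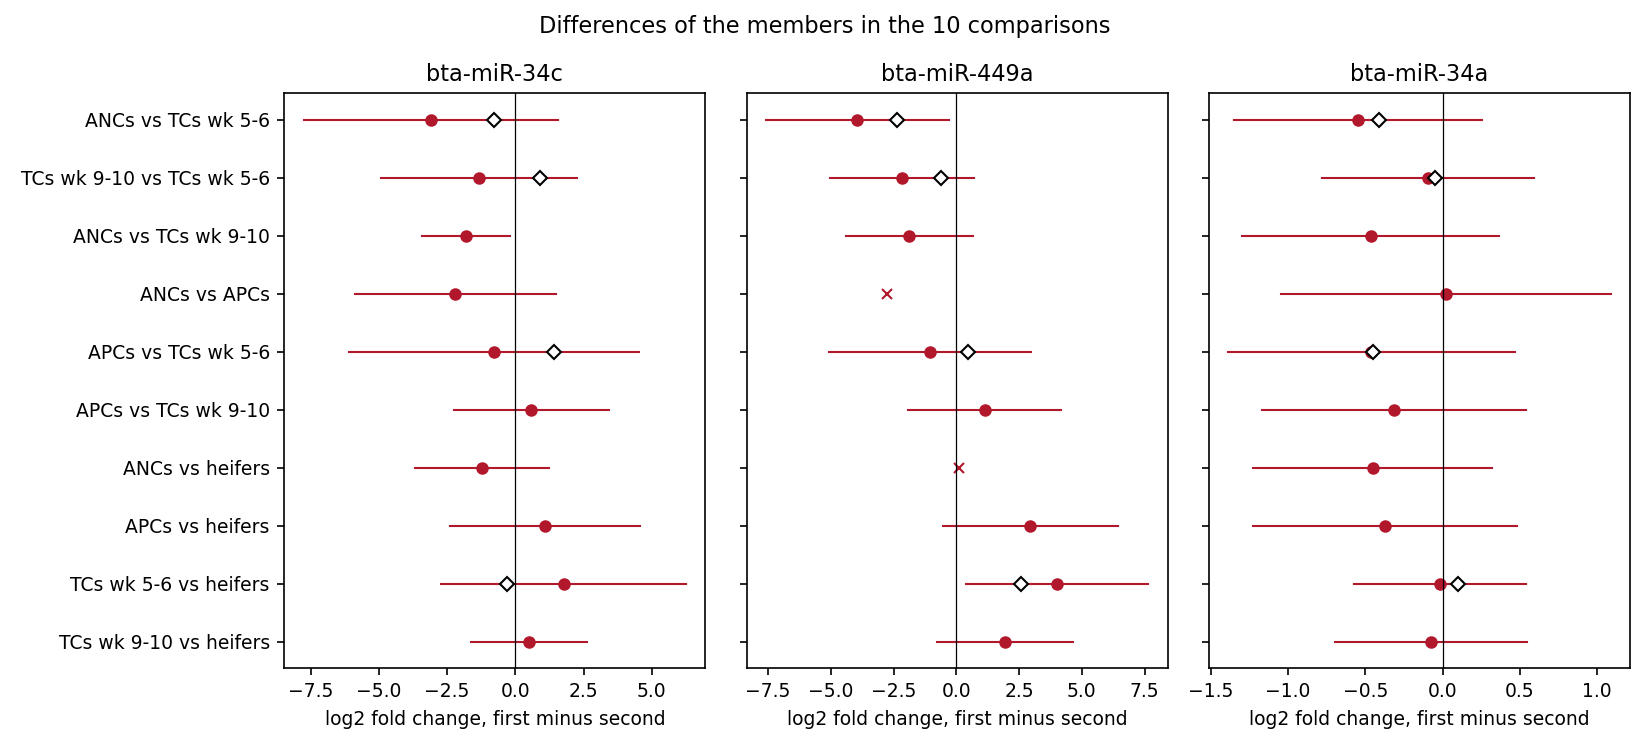
Log2 fold changes of bta-miR-34c (left), bta-miR-449a (middle) and bta-miR-34a (right; first group minus second) in the 10 comparisons, each panel with its own axis range. Red points with lines are limma values with 95% intervals, crosses are values below the filter on low counts, and open diamonds are values without replicate 2 of the TCs at weeks 5 and 6. For bta-miR-34c, 3 of the 4 diamonds lie on the other side of 0.

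Across all 5 groups, limma's F test gave an adjusted p of 0.444 for bta-miR-34a, 0.744 for bta-miR-34c and 0.342 for bta-miR-449a, and 2.02% of 247 miRNAs were called. With the exact permutation test of one miRNA over 7207200 arrangements of the pools, p was 0.0469 for bta-miR-34a, 0.765 for bta-miR-34c and 0.245 for bta-miR-449a, before any adjustment.

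Other miRNAs whose transcription or processing is linked to p53 were counted beside the family, 11 in all and all tested. In ANCs compared to TCs at weeks 5 and 6, 0 of 11 were called and their median log2 fold change was -0.85, against -0.09 for all miRNAs tested. Over the 10 comparisons 3 of 110 tests were called up and 2 down, a share of 4.55% against 4.80% over all 2248 tests of any miRNA. Those up were bta-miR-107 in APCs at 2.72 ± 0.53 against TCs at weeks 9 and 10 (limma adjusted p = 0.0493) and at 2.41 ± 0.49 against heifers (limma adjusted p = 0.0568), and bta-miR-145 in TCs at weeks 5 and 6 at 1.14 ± 0.23 against heifers (limma adjusted p = 0.133). Those down, both against heifers, were bta-miR-200c in ANCs at -1.60 ± 0.36 (limma adjusted p = 0.0749) and bta-miR-194 in APCs at -1.48 ± 0.53 (limma adjusted p = 0.229).

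Among miRNAs of follicle cells 0 of 10 were called in ANCs compared to TCs at weeks 5 and 6, where bta-miR-132 was at -2.23 ± 0.74 (SE, limma adjusted p = 0.432). The gonadal bta-miR-202 was at 0.90 ± 0.34 (limma adjusted p = 0.55). Of the 9 epithelial miRNAs tested 0 were called, with a median of -1.04, the largest being bta-miR-141 at -1.69 ± 0.81 (limma adjusted p = 0.567). In that comparison no erythroid, leukocyte, liver or muscle miRNA was called either, with bta-miR-451 of red cells at -2.35 ± 0.97 (limma adjusted p = 0.55) and liver bta-miR-122 at -2.28 ± 0.87 (limma adjusted p = 0.55). The median log2 fold change was -2.16 for the 2 erythroid miRNAs tested, -1.19 for the 5 leukocyte miRNAs, -0.10 for the 3 muscle miRNAs and 0.22 for the follicle miRNAs. The p53-linked and epithelial lists share bta-miR-141 and bta-miR-200c. The lower values of the family in the ANC pools thus stood beside lower medians of the p53-linked, epithelial, leukocyte and erythroid lists, and the part of blood, liver or epithelial RNA in them was not tested. In bulk EV RNA, fewer EVs of one cell type and less of a miRNA in each cannot be told apart.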

How the data were processed

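EV small RNA libraries were made from 13 pools with the QIAseq miRNA kit. The authors trimmed reads with Cutadapt 1.11, mapped them with Bowtie2 2.2.2 to UMD3.1, annotated miRNAs from miRBase and normalized by TMM. Whether molecular identifiers were counted was not given in the sources used here. Each deposited table lists CPM values. The authors normalized these signal values by TMM before they were deposited. In some libraries the values sum to more than CPM allow. All libraries were handled in the same way, whatever their sum. All 3681 values were whole multiples of a library's step (tolerance 0.1 reads), so the reads were recovered, summing to 145030 to 421435 per library.

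From these reads CPM were computed per comparison over the miRNAs listed for both groups, with TMM factors, and filtered (10 reads, 15 in total). log2(CPM + 5) was fitted with limma 3.58.1 (R 4.3.3) and p-values were adjusted by Benjamini-Hochberg over all miRNAs tested. edgeR 4.0.16, DESeq2 1.42.0, other scalings, pseudocounts of 1 and 20, no filter, 1 fit of all groups, the measuring day, a replicate block and leaving out each pool were alternatives. Scripts were tested on simulated counts. Pools of the TCs at weeks 5 and 6 and of the heifers with the same replicate number deviated together (r = 0.216, 0.377 and 0.385). Pools of the TCs at weeks 9 and 10 did so more with ANCs (r = 0.402 and 0.5) and with APCs (r = 0.504 and 0.495). The block is therefore given beside the first 2 of these comparisons. In APCs against TCs at weeks 9 and 10 it gave 0.15 for bta-miR-34c and 0.27 for bta-miR-449a, neither called. In comparisons of 2 pools against 3, replicate 3 has no partner, and the block gives it no weight. Named genes were the members, the 3 miRNAs most like each, the miRNAs that set a pool apart, and up to 3 from each list. Members and lists were chosen with earlier results of these data known.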

Additional observations from a re-analysis of the deposited data

How the results depend on the processing

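The 30 member differences gave 504 values under alternatives, of which 469 had an adjusted p. Of these 424 kept their direction and were not called, 16 became called and 29 changed sign. The other 35 had no test, and 4 of them changed sign. All statements here concern bta-miR-34a, bta-miR-34c and bta-miR-449a, and the cause of a change was not tested.

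The number of members called was 0 in the main fits. The labels give pools of different groups only a shared replicate number. All pools of replicate 1 were measured on the first day, so the block also takes up the measuring day where it is known. With the replicate block the number called was 1 in ANCs against TCs at weeks 5 and 6 (bta-miR-449a, -4.92). It was 2 in ANCs against TCs at weeks 9 and 10 (bta-miR-34c -2.24, bta-miR-449a -2.77) and 2 in APCs against heifers (2.25 and 4.21). In each comparison with such a call, replicate 3 of the larger group had no partner, so the block gave it no weight. The replicate block gave 0 in the other 7 comparisons. DESeq2 gave 1 in ANCs against APCs. Total counts, a pseudocount of 1 and the fit of all groups each gave 1 in TCs at weeks 5 and 6 against heifers (bta-miR-449a, 3.89, 5.54 and 4.02). Among the 5 groups the exact permutation test gave 1 member with an unadjusted p under 0.05 (bta-miR-34a, exact permutation p = 0.0469). No adjusted p was computed for it, so it is not a call as defined here. Leaving out single pools gave 0 to 2 in ANCs against APCs and in APCs against TCs at weeks 9 and 10, and 0 to 1 in APCs and in TCs at weeks 5 and 6 against heifers.

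Sign changes of bta-miR-34a were to 0.14 (total counts) and 0.05 (as deposited) between the TC times; to -0.01 (common scale), -0.04 (DESeq2 size factors), -0.07 (DESeq2) and -0.01 (all groups) in ANCs against APCs; and to 0.07 (DESeq2 size factors) and 0.07 (DESeq2) in TCs at weeks 5 and 6 against heifers. bta-miR-449a in ANCs against heifers went to -0.02 (as deposited) and -0.06 (pseudocount 20). bta-miR-34c in TCs at weeks 9 and 10 against heifers went to -0.30 (edgeR) and -0.35 (DESeq2). Leaving out pools gave, for bta-miR-34a, -0.19 to 0.01 between the TC times, -0.24 to 0.28 in ANCs against APCs, and -0.06 to 0.12 and -0.22 to 0.03 in TCs at weeks 5 and 6 and at weeks 9 and 10 against heifers. For bta-miR-34c it gave -2.46 to 0.90 between the TC times, -2.85 to 1.40 and -1.44 to 2.59 in APCs against TCs at the earlier and later weeks, -0.94 to 3.1 in APCs against heifers, and -0.30 to 2.96 and -0.12 to 1.65 in TCs at the earlier and later weeks against heifers. For bta-miR-449a it gave -2.90 to 0.78 and -0.67 to 2.94 in APCs against TCs at the earlier and later weeks and -1.30 to 1.54 in ANCs against heifers.

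Calls over all miRNAs ranged over the alternatives from 0 to 36 in ANCs against APCs, 0 to 7 and 0 to 27 in ANCs against TCs at the earlier and later weeks, 0 to 65 in ANCs against heifers, 0 to 4 and 0 to 44 in APCs against TCs, 3 to 63 in APCs against heifers, 0 to 22 between the TC times, and 0 to 46 and 0 to 25 in TCs against heifers. Depth limits bta-miR-449a and bta-miR-34b most, which had fewer than 10 reads in 6 of 13 and 2 of 3 libraries.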
